A study of Mus musculus with 7 samples.

Results

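The nuclear genes of mitochondrial oxidative phosphorylation were measured in OT-I cells, CD8 T cells with a transgenic receptor for an ovalbumin peptide, after 4 different transfers into host mice. Members were the genes whose single symbol in the array's platform annotation begins with Nduf, Uqcr, Atp5 or any of Cox4 to Cox8, together with Cyc1, Sdha, Sdhb, Sdhc and Sdhd. They came to 180 probe sets of 91 genes among the 18194 genes named on the array, and for each gene the probe set with the highest 7-array mean stood for it. Of the 91 members, 81 were among the 8203 genes tested, that is, genes with a log2 value of at least 5 on at least 2 arrays, and all 81 reached that level on every array. The 81 were 32 subunits of complex I, 8 complex I assembly factors of the Ndufaf series, 4 subunits of complex II, 9 of complex III, 11 genes placed with complex IV and 17 of complex V. Ndufa4, named after complex I, was placed with complex IV, where its protein is found, and Cox7a2l, which joins complexes into supercomplexes, was kept there as well.

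The respiratory chain passes electrons from NADH through complex I, and from succinate through complex II, to coenzyme Q, then through complex III and cytochrome c to complex IV, which reduces oxygen. Complexes I, III and IV pump protons, and complex V, the ATP synthase, uses the proton gradient to make ATP. Complex II is also the succinate dehydrogenase of the citric acid cycle and carries no subunit encoded by mitochondrial DNA. Naive T cells are known to rest on respiration, and T cells that have met antigen enlarge their mitochondria while raising glycolysis.

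All donor cells were CD44lo Ly5.1 OT-I cells labelled with CFSE, a dye diluted by division, and all hosts were C57BL/6 by strain label. Naive cells (n = 2 arrays) were undivided cells taken after 60 h from the spleens of B6 hosts without the antigen. RIP-OVAhi cells (n = 2), the model of deletional tolerance, were taken after 60 h from the sacral and pancreatic lymph nodes of hosts in which the rat insulin promoter drives ovalbumin. OCS/LPS cells (n = 2), the model of priming, were taken after 60 h from the spleens of hosts given lipopolysaccharide and splenocytes that carried ovalbumin on their surface. Rag cells (n = 1), the model of lymphopenia-induced proliferation, were taken after 5 days from the spleens of Rag-/- hosts, which lack their own T and B cells. Divided cells had passed at least 2 divisions, and each array held cells pooled from 10 mice, or from 20 mice for RIP-OVAhi. Tissue and group cannot be told apart for RIP-OVAhi, nor time and group for Rag, whose single array was taken to have the same spread as the other groups. Nothing in the labels says that the 2 pools of a group came from separate experiments, so the tests measure only the spread between these arrays.

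The deposited values are on the log2 scale after quantile normalization, so a change shared by most genes is not visible in them, and fewer cells of a type cannot be told apart from less RNA per cell. All 7 T cell marker genes measured lay at log2 5 or more on every array. Of 6 MHC class II and dendritic markers, 3 to 5 reached that level on the spleen arrays and 0 on the RIP-OVAhi arrays, and of 8 myeloid markers, 2 or 3 did on the naive and OCS/LPS arrays, 5 on the Rag array and 0 on the RIP-OVAhi arrays. The Gapdh control probe sets, in which the 3' reading exceeds the 5' one by more when RNA is degraded or amplified short, had gaps of 2.43 to 2.59 for the naive arrays, 2.03 to 2.08 for RIP-OVAhi, 1.85 to 1.89 for OCS/LPS and 2.21 for Rag. The actin control probe sets had gaps of 1.55 and 1.82 on naive arrays 1 and 2, and 1.18 and 1.35 for RIP-OVAhi. They were 1.27 and 1.25 for OCS/LPS and 1.52 for Rag. Actin ranked the naive arrays opposite to Gapdh, whose gaps were 2.59 on naive 1 and 2.43 on naive 2. The part of these differences in the results on the members was not tested.

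The 2 naive arrays stood apart from each other in these genes. Naive replicate 2 read above naive replicate 1 for 71 of 81 members, with a median gap of 0.50 (log2) and 13 gaps over 1. Over all 8203 tested genes it did so for 4145, with a median gap of 0.01 and 347 gaps over 1 (4.23%). The same gap was 0.01 between the RIP-OVAhi arrays and -0.05 between the OCS/LPS arrays over the members. In either group 0 members had a gap over 1, beside 0.341% and 0.378% of all tested genes. The naive gap had a median of 0.68 in complex I, 0.64 in its assembly factors, 0.40 in complex III, 0.47 in complex IV and 0.36 in complex V. Complex II differed from the rest in this respect, with a median gap of 0.00 and 2 of its 4 subunits higher on each array. Its gaps had both signs and balanced: the median absolute gap was 0.30, against 0.51 over all members and 0.27 over all tested genes. The widest gap was that of Atp5l, a subunit of the membrane sector of ATP synthase, which read 7.31 and 9.21 on the naive arrays against 8.41 to 8.54 on the other 5. Naive replicate 1 was the lowest of the 7 arrays for 61 of the 81 members, and naive replicate 2 the highest for 35. Over all 8203 tested genes these counts were 1840 and 1539. The members' counts and medians against naive cells, over all members and by complex, are therefore given with both naive arrays and with each one left out.

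**Figure D1:**
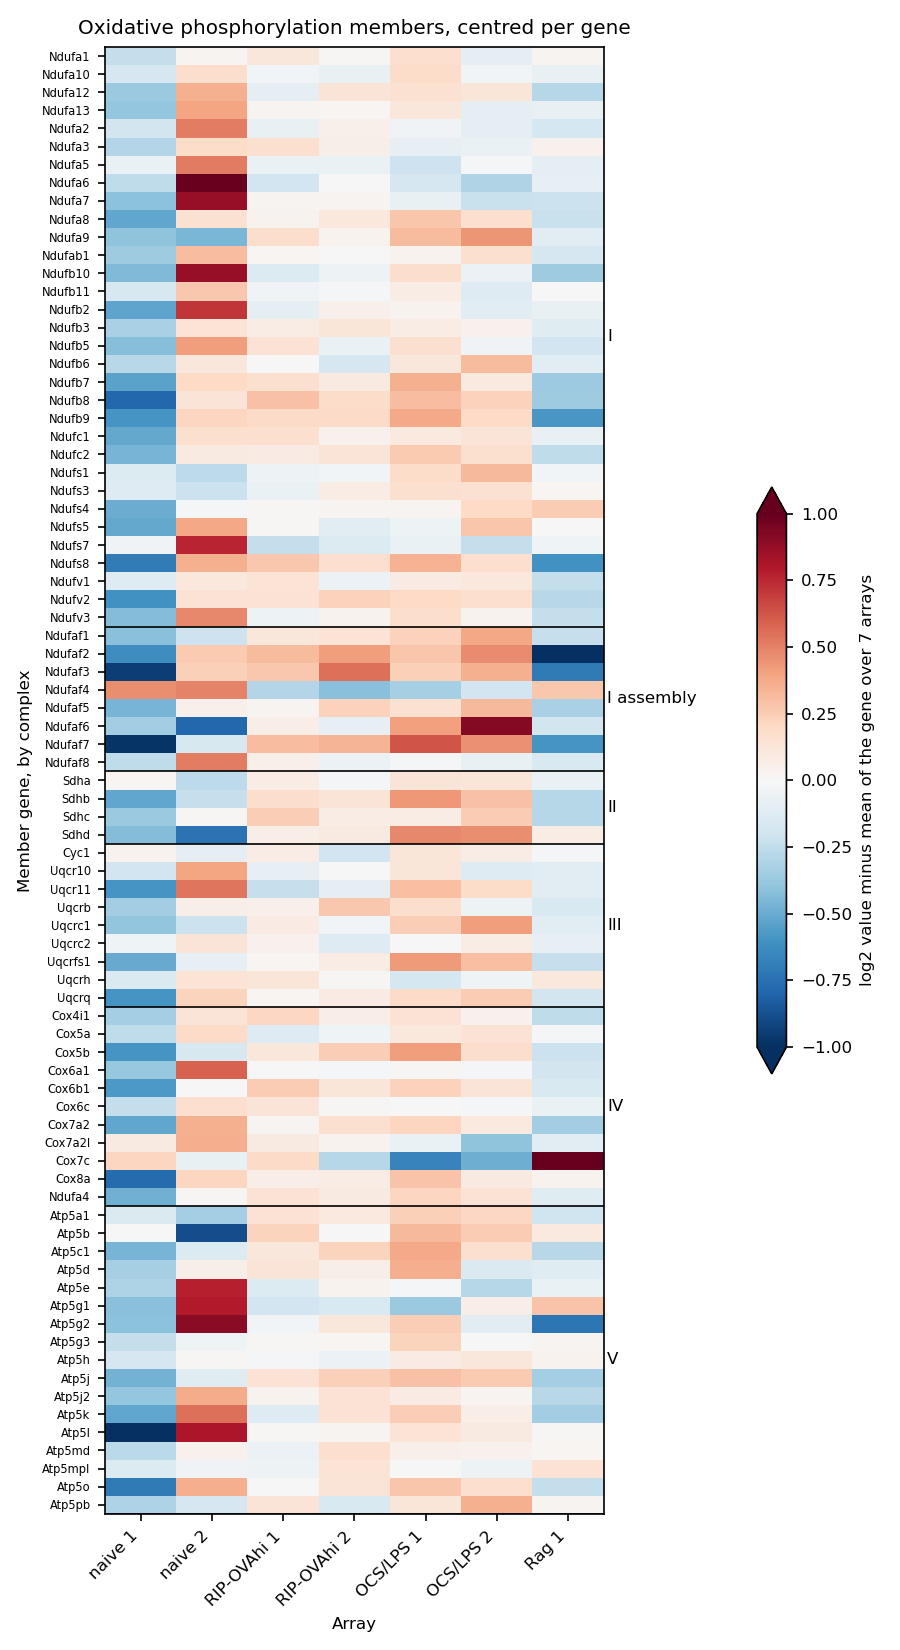
Heat map of the 81 tested members (rows, grouped by complex) on the 7 arrays (columns), as log2 value minus the gene's mean over the arrays, with colours capped at -1 and 1. The naive 1 column is mostly blue (lowest for 61 members) and the naive 2 column mostly red outside complex II (highest for 35), while the RIP-OVAhi and OCS/LPS columns are pale.

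**Figure D2:**
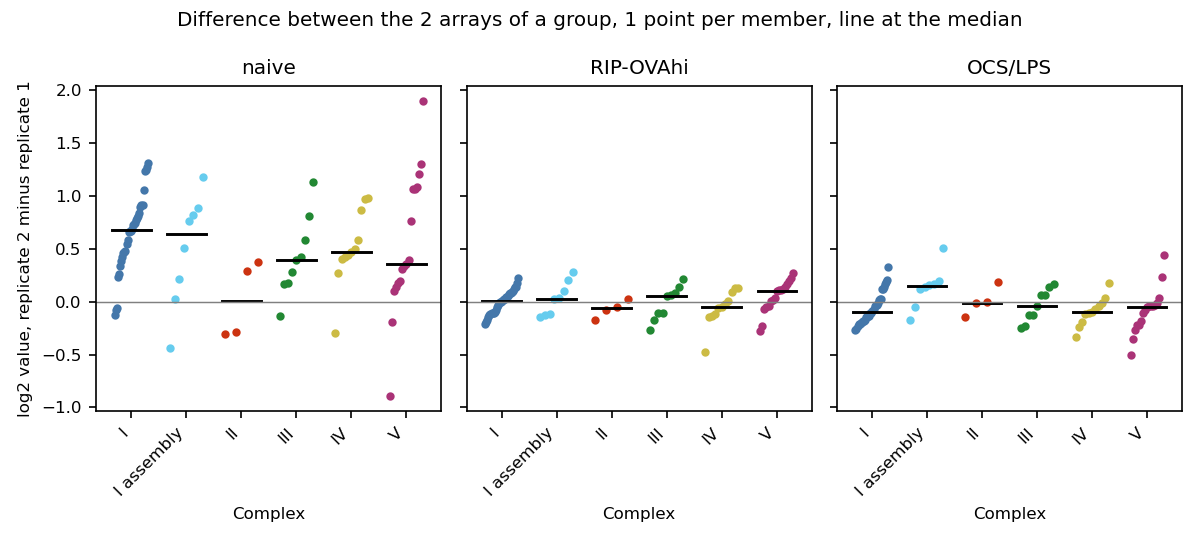
Replicate 2 minus replicate 1 on the log2 scale for each tested member, by complex, in the naive, RIP-OVAhi and OCS/LPS groups, with lines at the medians. Naive gaps have medians of 0.36 to 0.68 in every set but complex II (0.00, where gaps of both signs balance), and the other groups' gaps lie around 0.

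Setting RIP-OVAhi cells against naive cells asks what changed in cells undergoing deletional tolerance. By limma with Benjamini-Hochberg adjustment over the 8203 genes tested (a gene is called at an adjusted p under 0.05), 3 of 81 members rose and 1 fell, beside 29.6% of all tested genes called in either direction (18.1% higher and 11.6% lower). The risen genes were the complex I subunit Ndufa9 and the complex II subunits Sdhb and Sdhd, and the fallen gene was the assembly factor Ndufaf4. The members' median difference was 0.16 (log2), against 0.06 over all tested genes. The median SE was 0.207 over the members and 0.161 over all tested genes, so the call shares compare sets of unequal precision. These SEs were the same in OCS/LPS against naive and in RIP-OVAhi against OCS/LPS, and were 0.253 and 0.197 in the comparisons with Rag. Of the 81, 58 had a 95% interval within 1 of 0, beside 5477 of all 8203 tested genes. Without naive replicate 1 the count was 5 higher and 16 lower (23.3% and 16.2% of all genes) with a median of -0.07. Without naive replicate 2 it was 38 higher and 1 lower (24.1% and 15.8% of all genes) with a median of 0.42. The sign of the members' median thus differed between these 2 fits. Leaving out a naive array also takes the gap between the naive arrays out of the spread used in the tests. The counts in these fits therefore changed with the spread as well as with the naive level, whereas the medians do not depend on the spread. Leaving out RIP-OVAhi replicate 1 left 0 members higher, beside 7.25% of all genes, and 1 lower, beside 3.63%. Leaving out RIP-OVAhi replicate 2 left 0 of either, beside 6.73% and 3.11%. Without OCS/LPS replicate 1 or 2 there were 0 higher and 1 lower, beside 12.3% and 7.18%.

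In OCS/LPS against naive cells, which asks the same of primed cells, 13 of 81 members rose and 1 fell, beside 32.9% of all tested genes called in either direction (20.5% higher and 12.3% lower). The risen members came from every complex: 2 from complex I, 3 assembly factors, 2 from complex II, 2 from complex III, 1 from complex IV and 3 from complex V. The median difference was 0.24 against 0.08 over all tested genes. The count was 13 higher and 15 lower with a median of -0.01 without naive replicate 1 (24.9% and 16.2% of all genes), and 46 higher and 2 lower with a median of 0.49 without naive replicate 2 (27.5% and 17% of all genes). Without RIP-OVAhi replicate 1 or 2 there were 5 members higher, beside 14.3% of all genes, and 1 lower, beside 7.68%. Without OCS/LPS replicate 1 there were 3 higher and 0 lower, beside 10.9% and 3.96%. Without OCS/LPS replicate 2 there were 1 higher and 1 lower, beside 8.41% and 4%. After centring each array on its median, which lowers the differences from naive by 0.12 in RIP-OVAhi and 0.15 in OCS/LPS, the calls were 1 higher and 1 lower in RIP-OVAhi and 7 higher and 3 lower in OCS/LPS. The split over all genes then went from 1481 higher and 948 lower to 1192 and 1296 in RIP-OVAhi, and from 1685 and 1013 to 1340 and 1461 in OCS/LPS.

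Members overlapped between groups more often than not. Both RIP-OVAhi arrays lay above both naive arrays for 23 members and below both for 2, that is, the groups did not overlap for 25 of 81, beside 66% of all tested genes. For OCS/LPS they were 30 above and 4 below, 34 of 81 without overlap, beside 68% of all tested genes. Between arrays of replicate number 1, RIP-OVAhi was above naive for 77 of 81 members (median 0.41) and OCS/LPS for 75 (median 0.50). Over all tested genes the shares above naive were 53.9% and 53.9% (medians 0.05 and 0.05). Between arrays of number 2 they were above for 31 members (median -0.12) and 34 (median -0.09), beside 53.3% and 55.7% of all tested genes (medians 0.04 and 0.08). Complex II kept its direction in both, with 4 of 4 subunits above naive and medians of 0.56 and 0.31 in RIP-OVAhi cells and 0.68 and 0.45 in OCS/LPS. The complex I assembly factors also had medians above 0 in both, with 7 and 6 of 8 above naive in each comparison (medians 0.51 and 0.25 in RIP-OVAhi cells, 0.70 and 0.24 in OCS/LPS cells). The medians of complexes I, III, IV and V were above 0 on number 1 and below 0 on number 2.

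**Figure D3:**
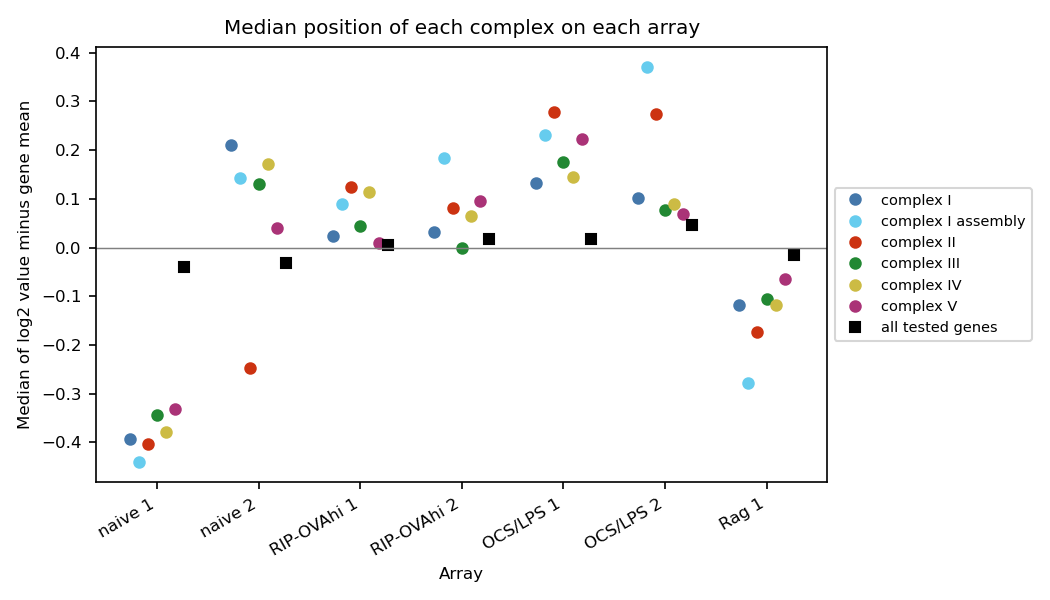
Median over the members of each complex of log2 value minus the gene's mean over the 7 arrays, for each array, with all 8203 tested genes as black squares. Complex II lies at -0.40 and -0.25 on the 2 naive arrays and above 0 on the 4 RIP-OVAhi and OCS/LPS arrays, whereas the other complexes lie below 0 on naive 1 and above 0 on naive 2.

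In complex II, 2 of the 4 subunits rose in each of the 2 comparisons with naive cells, Sdhb and Sdhd in both. Of all tested genes, 18.1% rose in RIP-OVAhi and 20.5% in OCS/LPS. Sdhd, one of the membrane anchors, read 9.22 and 8.91 in naive cells, 9.72 and 9.74 in RIP-OVAhi cells, 10.13 and 10.12 in OCS/LPS cells and 9.73 in Rag. The naive arrays were the lowest of the 7 and the OCS/LPS arrays the highest, with no overlap. The difference from naive was 0.66 (SE 0.14, adjusted p = 0.0184) in RIP-OVAhi and 1.06 (SE 0.14, adjusted p = 0.0036) in OCS/LPS. The second Sdhd probe set read 9.39 and 9.41 in naive cells, 9.38 and 9.39 in RIP-OVAhi cells and 9.68 and 9.54 in OCS/LPS cells, and it gave -0.02 and 0.21, neither called, so the rise of Sdhd rests on 1 of its 2 probe sets. Sdhb, the iron-sulfur subunit that carries electrons towards coenzyme Q, read 10.72 and 11.01 in naive cells, 11.42 and 11.37 in RIP-OVAhi cells, 11.67 and 11.53 in OCS/LPS cells and 10.96 in Rag. Its groups did not overlap between naive, RIP-OVAhi and OCS/LPS. It rose by 0.53 (SE 0.14, adjusted p = 0.0399) in RIP-OVAhi and by 0.73 (SE 0.14, adjusted p = 0.013) in OCS/LPS. Sdha, the flavoprotein that oxidises succinate, read 11.73 and 11.45 in naive cells and 11.71 to 11.84 on the RIP-OVAhi and OCS/LPS arrays, and its differences of 0.15 and 0.25 were not called. Its second probe set was called higher in both, by 0.60 (SE 0.14) and 0.66 (SE 0.14), reading 11.12 and 10.93 in naive against 11.52 to 11.74 on the RIP-OVAhi and OCS/LPS arrays. Sdhc, the other membrane anchor, read 8.38 and 8.77 in naive cells, 8.83 to 9.01 on the same 4 arrays and 8.47 in Rag, and its differences of 0.34 and 0.35 were not called.

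Among the 32 subunits of complex I, 1 rose in RIP-OVAhi, beside 18.1% of all tested genes, and 2 in OCS/LPS, beside 20.5%. There were 0 falls, beside 11.6% and 12.3%, and the median differences were 0.05 and 0.14. Without naive replicate 1 the counts were 1 higher and 8 lower in RIP-OVAhi and 2 and 7 in OCS/LPS, with medians of -0.17 and -0.10. Without naive replicate 2 they were 15 and 18 higher with 0 lower, and the medians were 0.41 and 0.49, so the sign of the complex's median turned with the naive array used. Ndufa9, an accessory subunit near the coenzyme Q site, was low on both naive arrays, at 10.75 and 10.69, and read 11.32 and 11.18 in RIP-OVAhi cells, 11.46 and 11.59 in OCS/LPS cells and 11.03 in Rag. It rose by 0.54 (SE 0.12, adjusted p = 0.0238) in RIP-OVAhi and by 0.81 (SE 0.12, adjusted p = 0.0057) in OCS/LPS. Ndufs1, the largest iron-sulfur subunit of the electron input arm, read 10.37 and 10.25 in naive cells, 10.46 and 10.48 in RIP-OVAhi cells, 10.69 and 10.83 in OCS/LPS cells and 10.48 in Rag. It rose by 0.45 (SE 0.12, adjusted p = 0.0366) in OCS/LPS. Ndufv1, which binds the NADH that enters the chain, read 11.20 and 11.43 in naive cells and 11.27 to 11.46 on the RIP-OVAhi and OCS/LPS arrays, with no call. The naive arrays often spanned the others: Ndufa6, an accessory subunit, read 10.45 and 11.69 in naive cells against 10.40 to 10.69 on the other 5 arrays. For 25 of the 32 subunits naive replicate 1 was the lowest array, and for 17 naive replicate 2 was the highest, beside 1840 and 1539 of all 8203 tested genes.

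The 8 complex I assembly factors, which help build the complex without staying in it, held both the largest rise and the single fall among the members. Ndufaf4 read 9.10 and 9.13 in naive cells, 8.34 and 8.22 in RIP-OVAhi cells, 8.30 and 8.45 in OCS/LPS cells and 8.91 in Rag. The 4 RIP-OVAhi and OCS/LPS arrays were the lowest, with no overlap with naive or Rag. It fell by 0.84 (SE 0.12, adjusted p = 0.0056) in RIP-OVAhi and by 0.74 (SE 0.12, adjusted p = 0.0075) in OCS/LPS, and its second probe set was called lower too, at -1.17 and -1.0. Ndufaf6, which acts early in building the membrane arm, read 6.49 and 6.05 in naive cells, 6.90 and 6.76 in RIP-OVAhi cells, 7.24 and 7.75 in OCS/LPS cells and 6.66 in Rag. It rose by 1.23 (SE 0.23, adjusted p = 0.0108) in OCS/LPS, while in RIP-OVAhi the difference was 0.56 (adjusted p = 0.119). Ndufaf7, a methyltransferase that modifies a core subunit, read 6.86 and 7.68 in naive cells, 8.15 and 8.18 in RIP-OVAhi cells, 8.47 and 8.30 in OCS/LPS cells and 7.26 in Rag. It rose by 1.11 (SE 0.27, adjusted p = 0.0249) in OCS/LPS, and its difference of 0.89 in RIP-OVAhi was not called. Ndufaf1, a component of the intermediate assembly complex, rose by 0.62 (SE 0.13, adjusted p = 0.0176) in OCS/LPS, from 8.29 and 8.50 to 8.93 and 9.09, and read 8.82 and 8.84 in RIP-OVAhi.

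In complex III, 0 of 9 subunits were called in RIP-OVAhi, beside 29.6% of all tested genes, and 2 rose in OCS/LPS, beside 20.5%. Uqcrc1, a subunit on the matrix side, read 9.54 and 9.72 in naive cells, 10.02 and 9.91 in RIP-OVAhi cells, 10.18 and 10.35 in OCS/LPS cells and 9.83 in Rag. It rose by 0.64 (SE 0.13, adjusted p = 0.0162) in OCS/LPS. Uqcrfs1, the Rieske iron-sulfur protein, read 10.95 and 11.37 in naive cells, 11.47 and 11.53 in RIP-OVAhi cells, 11.88 and 11.75 in OCS/LPS cells and 11.22 in Rag. It rose by 0.66 (SE 0.17, adjusted p = 0.0306) in OCS/LPS. For both genes the OCS/LPS arrays were the highest of the 7. Cyc1, cytochrome c1, read 11.79 and 11.66 in naive cells, 11.56 to 11.87 on the RIP-OVAhi and OCS/LPS arrays and 11.73 in Rag, with no call.

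In complex IV, Cox5b, a nuclear-encoded subunit of the enzyme, was the single call against naive among 11 genes. Of all tested genes, 29.6% were called in RIP-OVAhi and 32.9% in OCS/LPS. Cox5b rose by 0.67 (SE 0.18, adjusted p = 0.0367) in OCS/LPS, from 12.70 and 13.13 to 13.71 and 13.47. Of its 4 further tested probe sets, 3 were called higher in OCS/LPS, by 0.66 to 1.03, and the same 3 in RIP-OVAhi, by 0.60 to 0.82, whereas the probe set named here missed the threshold in RIP-OVAhi with 0.56. Cox4i1, Cox5a and Cox6c, further nuclear-encoded subunits, were not called. Cox4i1 read 12.82 and 13.29 in naive cells against 13.20 to 13.37 on the RIP-OVAhi and OCS/LPS arrays, Cox5a 13.03 and 13.48 against 13.16 to 13.43, and Cox6c 11.84 and 12.25 against 12.07 to 12.20. For these 3 genes the other arrays lay mostly between the naive arrays. Cox7a2l read 13.10 and 13.38 in naive cells, 13.10 and 13.05 in RIP-OVAhi cells, 12.95 and 12.61 in OCS/LPS cells and 12.91 in Rag. No array lay above the naive ones, and the gene was not called. The untested members were largely in this complex. Cox4i2, Cox6a2, Cox6b2, Cox7a1, Cox7b2, Cox8b and Cox8c, known as isoforms of lung, muscle or testis among others, and Ndufa4l2, a hypoxia-induced paralogue of Ndufa4, stayed below log2 5 on every array, as did Ndufb1 and Ndufb4 of complex I. The values of these 10 genes ran from 1.72 to 2.71, and for Ndufb4 other probe sets, shared with further symbols, were not used.

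In complex V, 0 of 17 members were called in RIP-OVAhi, beside 29.6% of all tested genes, and 3 rose in OCS/LPS, beside 20.5%. The 3 were Atp5a1 and Atp5c1, subunits of the catalytic F1 sector, and Atp5j, which belongs to the peripheral stalk. Atp5a1 read 13.03 and 12.84 in naive cells, 13.32 and 13.27 in RIP-OVAhi cells, 13.42 and 13.38 in OCS/LPS cells and 12.98 in Rag. It rose by 0.46 (SE 0.12, adjusted p = 0.0345) in OCS/LPS, and its second probe set was called higher in both OCS/LPS (0.81) and RIP-OVAhi (0.75). Atp5j rose by 0.57 (SE 0.15, adjusted p = 0.0347), from 11.50 and 11.86 to 12.27 and 12.24. Atp5c1 rose by 0.57 (SE 0.16, adjusted p = 0.042), from 12.80 and 13.13 to 13.65 and 13.43, but its second probe set gave -0.61 (adjusted p = 0.176), so the direction differs between its probe sets. Atp5b, the catalytic subunit, read 12.31 and 11.42 in naive and 12.30 to 12.64 on the other 5 arrays, with no call.

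**Figure D4:**
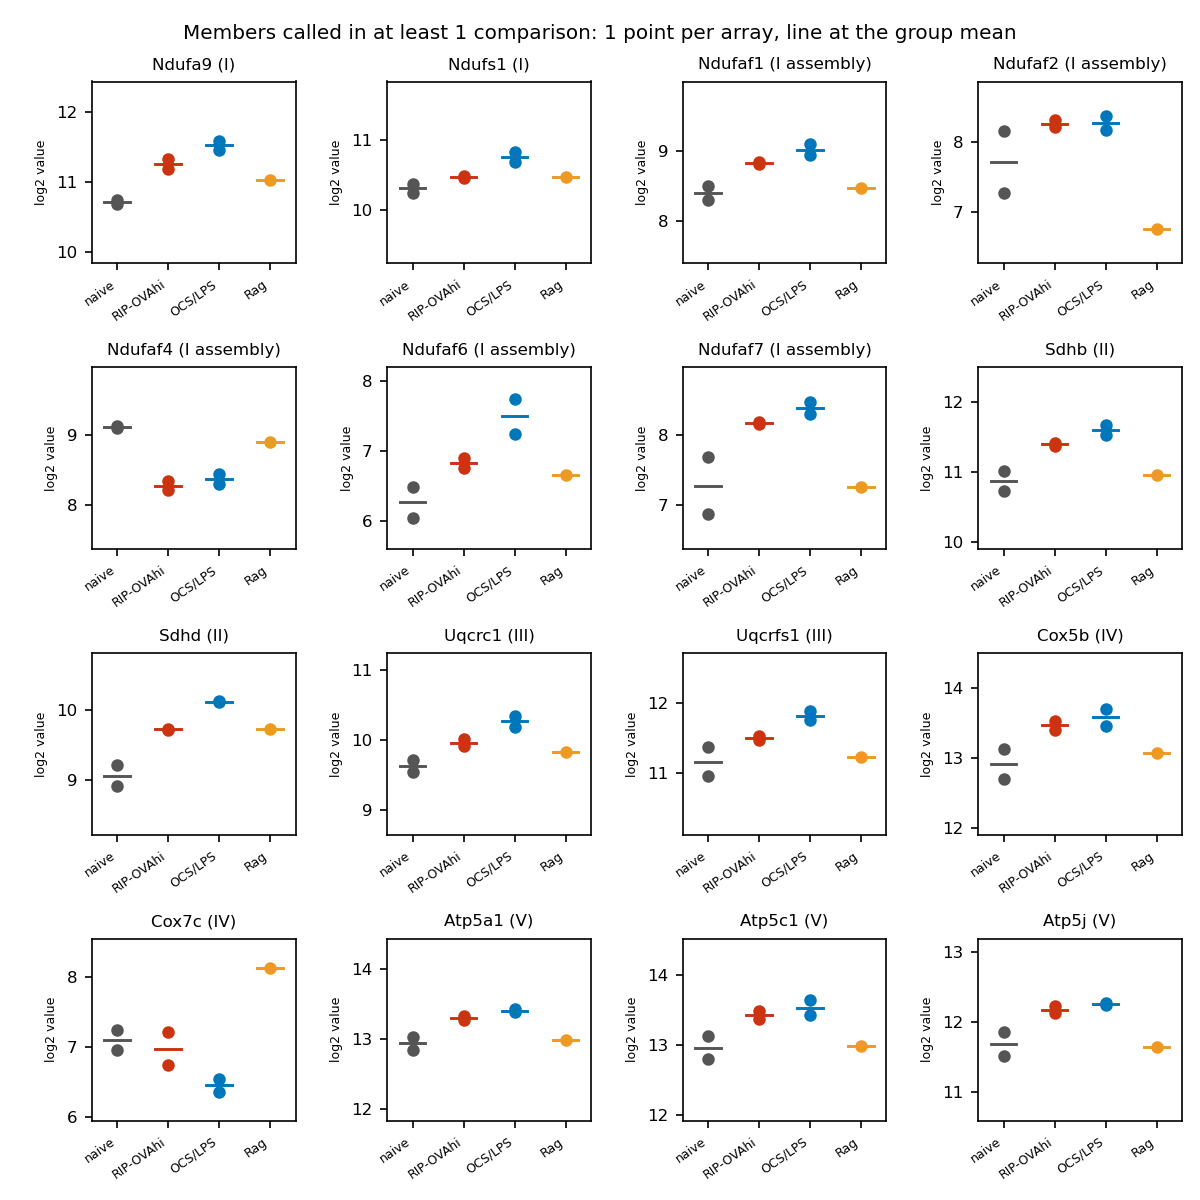
log2 values of the 16 members called in at least 1 comparison, with 1 point per array, lines at group means and the same span on every vertical axis. Sdhd and Ndufa9 rise from naive to OCS/LPS without overlap, Ndufaf4 is lower on all 4 RIP-OVAhi and OCS/LPS arrays, and Cox7c and Ndufaf2 set the Rag array apart.

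The other complexes also moved with the naive array used. The counts by complex are to be read beside the shares of all genes given above for the same fits. As above, these counts also changed because the naive gap left the spread, and the medians did not. Without naive replicate 1, RIP-OVAhi cells had 1 higher and 2 lower among the assembly factors (median 0.14), 1 and 0 in complex II (0.34), 0 and 1 in complex III (-0.07), 0 and 1 in complex IV (-0.10) and 2 and 4 in complex V (0.02). Without naive replicate 2 they had 5 higher and 1 lower among the assembly factors (0.57), and 3, 3, 7 and 5 higher with 0 lower in complexes II to V (0.52, 0.42, 0.48 and 0.32). In OCS/LPS cells without naive replicate 1 there were 3 higher and 2 lower among the assembly factors (0.15), 3 and 0 in complex II (0.49), 2 and 0 in complex III (-0.00023), 0 and 2 in complex IV (-0.07) and 3 and 4 in complex V (0.0094). Without naive replicate 2 there were 6 and 1 among the assembly factors (0.86), 3 and 0 in complex II (0.71), 4 and 0 in complex III (0.41), 8 and 1 in complex IV (0.43) and 7 and 0 in complex V (0.44). The medians of complexes III and IV changed sign between these fits in both comparisons, and those of complexes II and V and of the assembly factors did not.

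Few of these calls were kept whichever array was left out. Of the 6 fits with 1 array left out, Sdhd in OCS/LPS kept its call in all 6 (adjusted p 0.00230 to 0.0401). In OCS/LPS, Ndufa9 lost its call without OCS/LPS replicate 2 (adjusted p = 0.0556), Ndufaf6 without the same array (0.0727) and Ndufaf4 without OCS/LPS replicate 1 (0.0604). In RIP-OVAhi, Ndufaf4 lost its call without RIP-OVAhi replicate 2 (0.0593). Sdhb and Uqcrc1 in OCS/LPS lost theirs without either OCS/LPS array (up to 0.0900 and 0.111). Ndufs1, Ndufaf1, Ndufaf7, Uqcrfs1, Cox5b, Atp5a1, Atp5c1 and Atp5j in OCS/LPS, and Ndufa9, Sdhb and Sdhd in RIP-OVAhi, lost theirs whichever of the 4 RIP-OVAhi and OCS/LPS arrays was left out (up to 0.118 for Ndufaf1 and 0.206 for Atp5c1, and up to 0.119 for Sdhd and 0.187 for Sdhb). Cox5b and Atp5c1 in OCS/LPS and Sdhb in RIP-OVAhi also lost theirs without naive replicate 1. After centring each array on its median, Ndufs1, Uqcrfs1, Cox5b, Atp5a1, Atp5c1 and Atp5j in OCS/LPS and Ndufa9 and Sdhb in RIP-OVAhi were no longer called (adjusted p 0.0563 to 0.130).

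The comparison of RIP-OVAhi with OCS/LPS sets deletional tolerance beside priming at the same hour and does not use the naive arrays' means. By limma, 0 of 81 members were called, beside 2.91% of all tested genes (1.61% higher and 1.3% lower), and 3 members had an unadjusted p under 0.05: Ndufaf6, Sdhd and Cox7c. The median difference was -0.08, against -0.05 over all tested genes, and 57 of 81 members lay lower in RIP-OVAhi, beside 4763 of all 8203 tested genes. The largest differences were -0.67 in Ndufaf6 (95% interval -1.23 to -0.11, adjusted p = 0.231) and 0.53 in Cox7c (0.03 to 1.02, adjusted p = 0.271). Sdhd differed by -0.40 (95% interval -0.74 to -0.05, adjusted p = 0.245). For 72 of 81 members the 95% interval of the difference lay within 1 of 0, so a doubling or halving lay outside it, and for 18 it lay within 0.5. Over all 8203 tested genes these counts were 7011 and 2604. All RIP-OVAhi arrays lay above all OCS/LPS arrays for 7 members and below them for 27, that is, no overlap for 34 of 81, beside 57.6% of all tested genes. By complex the median difference was -0.05 in complex I, -0.10 in its assembly factors, -0.15 in complexes II and III, -0.01 in complex IV and -0.10 in complex V. Each of the 6 fits with 1 array left out also gave 0 member calls, beside at most 2.72% of all genes in 1 direction. The fit without both naive arrays gave 0 too, beside 2.72% higher and 2.35% lower. It is not a further check, since a single naive array adds no spread. For this comparison it is the same test as leaving out either naive array.

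**Figure D5:**
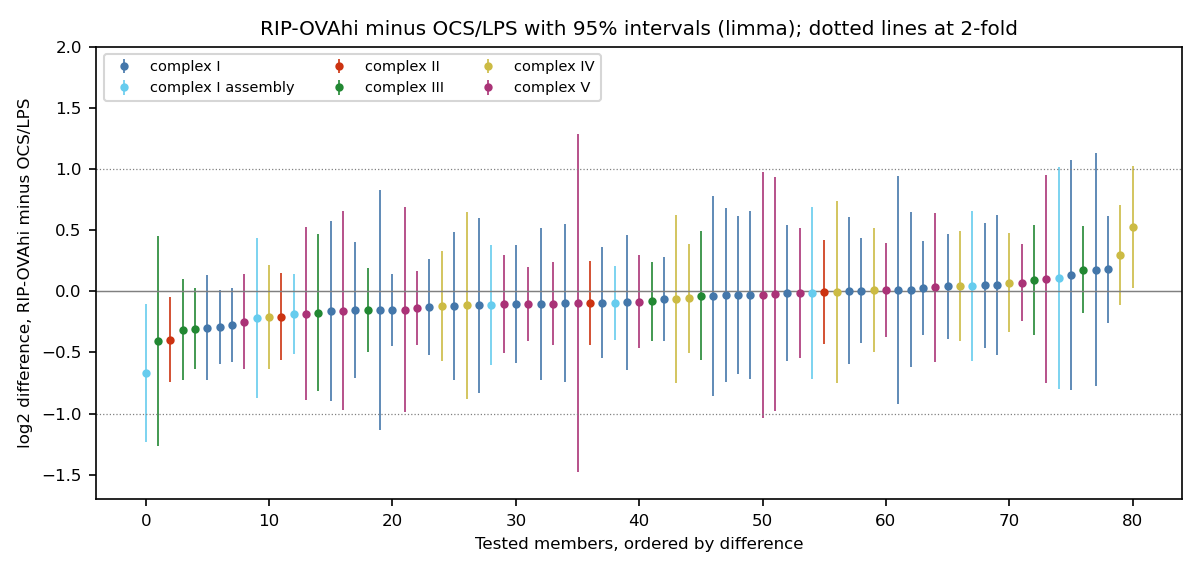
RIP-OVAhi minus OCS/LPS on the log2 scale for the 81 tested members, ordered by size, with 95% intervals from limma (n = 2 arrays per group). Differences run from -0.67 to 0.53, and 72 of the 81 intervals lie between the dotted lines at -1 and 1 (7011 of 8203 over all tested genes, not drawn).

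The Rag array asks whether division driven by lymphopenia, without the antigen, went with the same levels. Against naive, 0 of 81 members were called, beside 2.73% of all tested genes (2.15% higher and 0.585% lower), and 3 had an unadjusted p under 0.05. The median difference was -0.03, against 0.04 over all tested genes. Without naive replicate 1 there were 3 members higher and 22 lower (11.2% and 8.56% of all genes) with a median of -0.29, and without naive replicate 2 there was 1 higher and 0 lower (2.72% and 0.731% of all genes) with a median of 0.20. The Rag array read between the 2 naive arrays for 60 members, above both for 13 and below both for 8, that is, outside the naive arrays for 21 of 81, beside 67.6% of all tested genes. Sdhd on the Rag array, at 9.73, lay at the RIP-OVAhi level, with a difference from naive of 0.66 that was not called (adjusted p = 0.129).

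RIP-OVAhi cells differed from the Rag array in 3 members, 1 higher and 2 lower, beside 16.7% of all tested genes (9.84% higher and 6.9% lower). OCS/LPS cells differed in 2, 1 higher and 1 lower, beside 18.1% (11.2% higher and 6.9% lower). Both RIP-OVAhi arrays lay above the Rag array for 54 members and below it for 10, outside it for 64 of 81, beside 86% of all tested genes. The OCS/LPS arrays lay above it for 60 and below for 9, outside for 69 of 81, beside 87.2%. These comparisons share the Rag array, and the naive arrays enter them only through the common estimate of spread. Ndufaf2, a chaperone of late complex I assembly, read 6.76 in Rag, 8.21 and 8.31 in RIP-OVAhi cells, 8.18 and 8.37 in OCS/LPS cells and 7.28 and 8.16 in naive. It was higher than in Rag by 1.50 (SE 0.35, adjusted p = 0.0379) in RIP-OVAhi and by 1.51 (SE 0.35, adjusted p = 0.0359) in OCS/LPS. Cox7c, a small subunit of complex IV, read 8.13 in Rag, 7.21 and 6.74 in RIP-OVAhi cells, 6.36 and 6.54 in OCS/LPS cells and 7.24 and 6.95 in naive cells, so the Rag array was the highest of the 7. It was lower than in Rag by 1.16 in RIP-OVAhi (difference -1.16, SE 0.25, adjusted p = 0.0293) and by 1.69 in OCS/LPS (difference -1.69, SE 0.25, adjusted p = 0.0096). The second Cox7c probe set had the same direction, at -0.57 and -0.82, and was not called. Ndufaf4 was lower in RIP-OVAhi than in Rag (-0.63, SE 0.15, adjusted p = 0.0414).

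With both naive arrays left out of the fit, an alternative chosen after seeing the data, the spread came from the RIP-OVAhi and OCS/LPS pairs alone. OCS/LPS then had 23 members higher than Rag and 2 lower, beside 20.4% and 14.2% of all tested genes, and RIP-OVAhi had 10 higher and 2 lower, beside 17.4% and 13.7%. The 23 comprised 8 subunits of complex I, 5 assembly factors, 2 subunits of complex II, 2 of complex III, 1 of complex IV and 5 of complex V. Examples were Ndufb9 (0.87, SE 0.12, adjusted p = 0.0104), Ndufs8 (0.86, SE 0.13, adjusted p = 0.0121), Ndufaf7 (1.13, SE 0.12, adjusted p = 0.0057) and Atp5j (0.62, SE 0.10, adjusted p = 0.0156). Ndufs8, an iron-sulfur subunit near the coenzyme Q site, read 10.92 in Rag against 11.79 and 11.68 in RIP-OVAhi cells and 11.86 and 11.68 in OCS/LPS cells, but 10.82 and 11.88 in naive. The median difference over the members was 0.17 in RIP-OVAhi against Rag and 0.26 in OCS/LPS against Rag, against 0.02 and 0.06 over all tested genes. The group mean was above the Rag value for 62 and 68 of the 81 members, beside 4337 and 4534 of all 8203 tested genes. In the fit with all 7 arrays, leaving out any 1 RIP-OVAhi or OCS/LPS array gave 0 members higher than Rag in both comparisons, beside 2.88% to 5.57% of all genes. In those 4 fits the lower calls came to 0 for RIP-OVAhi and to 0 or 1 for OCS/LPS, the 1 being found without RIP-OVAhi replicate 1 or 2.

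Genes that work beside the complexes were described from lists of related pathways, read against the shares of all tested genes. Against naive, 18.1% of these were called higher and 11.6% lower in RIP-OVAhi, and 20.5% and 12.3% in OCS/LPS. On the Rag array the shares were 2.15% and 0.585%. The shares with 1 array left out are those given above with the members. For Rag against naive they were given only for the fits without a naive array. Among 15 tested genes of the citric acid cycle and pyruvate dehydrogenase, 3 rose and 1 fell in RIP-OVAhi and 8 rose and 0 fell in OCS/LPS. These counts ran, with 1 array left out, from 0 to 4 higher and 0 to 2 lower in RIP-OVAhi and from 0 to 10 higher and 0 to 1 lower in OCS/LPS. Fh1, the fumarase that acts on the product of complex II, read 9.48 and 9.82 in naive cells, 10.17 and 10.41 in RIP-OVAhi cells, 10.50 and 10.60 in OCS/LPS cells and 9.66 in Rag, and rose by 0.64 and 0.90 in the first and second of these comparisons. Dlat, a subunit of pyruvate dehydrogenase, rose by 1.26 in OCS/LPS, and Pdha1, another, rose by 0.57 in RIP-OVAhi. The succinyl-CoA ligase subunit Suclg2 fell by 0.84 in RIP-OVAhi, and Sucla2, a subunit of the ATP-forming ligase, rose by 0.60 in OCS/LPS. Among 14 tested genes for coenzyme Q, cytochrome c and the electron transfer flavoproteins, 4 rose and 2 fell in RIP-OVAhi and 5 rose and 2 fell in OCS/LPS, and with 1 array left out 0 to 5 were higher and 0 to 2 lower in RIP-OVAhi and 1 to 6 higher and 0 to 3 lower in OCS/LPS. Etfb, the beta subunit of the flavoprotein that feeds electrons from fatty acid oxidation to coenzyme Q, rose by 1.16 (adjusted p = 0.0166) and 1.47 (adjusted p = 0.00699) in RIP-OVAhi and OCS/LPS, and the coenzyme Q synthesis gene Coq3 rose by 0.90 and 1.09. Coq7, a hydroxylase of that synthesis, rose by 1.04 in OCS/LPS, while Coq2, which acts early in it, fell by 0.98 and 0.77. Coq3 in OCS/LPS kept its call in all 6 fits with 1 array left out (adjusted p up to 0.0327). Fh1 in RIP-OVAhi kept its call in 1 of the 6 (up to 0.200), Coq2 and Coq3 in RIP-OVAhi lost theirs without RIP-OVAhi replicate 1 (0.0549 and 0.0639) and Dlat without OCS/LPS replicate 2 (0.0828). Fh1, Etfb, Coq2 and Coq7 in OCS/LPS lost theirs without either OCS/LPS array (up to 0.107 for Coq7), and Pdha1 in RIP-OVAhi without either RIP-OVAhi array (up to 0.110). Etfb and Suclg2 in RIP-OVAhi and Sucla2 in OCS/LPS lost theirs whichever of those 4 arrays was left out (up to 0.119, 0.122 and 0.109). Cycs, cytochrome c, read 12.69 and 13.22 in naive and 12.59 to 12.83 on the other 5 arrays, with no call.

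Of 37 tested assembly factors with other symbols, 3 rose and 1 fell in RIP-OVAhi, 3 rose and 0 fell in OCS/LPS, and 0 rose and 1 fell in Rag. Leaving out 1 array gave counts from 1 to 9 higher and 0 to 7 lower in RIP-OVAhi, from 2 to 12 higher and 0 to 5 lower in OCS/LPS, and from 0 to 9 lower in Rag with 0 higher. The highest counts of higher genes came without naive replicate 2, and the highest counts of lower genes without naive replicate 1. Acad9, which works with Ndufaf1 in complex I assembly, rose by 0.85 and 0.78 in RIP-OVAhi and OCS/LPS and kept both calls in all 6 fits with 1 array left out (adjusted p up to 0.0483). Its second probe set gave 0.23 (adjusted p = 0.234) and 0.40 (adjusted p = 0.0611) and was not called, so the rise of Acad9 rests on 1 of these probe sets. Coa7, a complex IV assembly factor, rose by 0.62 in RIP-OVAhi, a call kept in 1 of the 6 fits (up to 0.225), and by 1.24 in OCS/LPS, kept in all 6. Oxa1l, which inserts proteins into the inner membrane, rose by 0.48 and 0.56, and lost its call in OCS/LPS without either OCS/LPS array (up to 0.0950) and in RIP-OVAhi whichever of the 4 RIP-OVAhi and OCS/LPS arrays was left out (up to 0.162). The second Oxa1l probe set gave 0.28 in both and was not called (0.321 and 0.304), and after centring neither Oxa1l call was kept (0.0830 in RIP-OVAhi and 0.0503 in OCS/LPS). Tmem186, a complex I assembly factor, fell by 1.04 in RIP-OVAhi, a call lost without RIP-OVAhi replicate 2 (0.0503). Timmdc1, another complex I assembly factor, was the fall in Rag, by 1.37 (SE 0.17, adjusted p = 0.0165), from 7.12 on both naive arrays to 5.75, and lost its call whichever of the 4 RIP-OVAhi and OCS/LPS arrays was left out (up to 0.0738). Sdhaf1, a complex II assembly factor, was higher in RIP-OVAhi than in Rag by 1.18, a call lost whichever of the 4 RIP-OVAhi and OCS/LPS arrays was left out (up to 0.118). Among 9 tested adenine nucleotide, phosphate and uncoupling carriers, 2 rose in RIP-OVAhi cells, 4 in OCS/LPS cells and 1 on the Rag array, with 0 falls. Of all tested genes, 18.1%, 20.5% and 2.15% rose in these 3 comparisons. The rises ran from 1 to 5, from 1 to 6 and from 0 to 1 with 1 array left out. Slc25a24, which exchanges ATP-Mg for phosphate across the inner membrane, read 6.17 and 6.55 in naive cells, 9.24 and 8.98 in RIP-OVAhi cells, 9.24 and 9.41 in OCS/LPS cells and 7.95 in Rag. It rose by 2.75 in RIP-OVAhi cells, 2.97 in OCS/LPS cells and 1.59 (adjusted p = 0.0244) in Rag, and neither naive array overlapped any other. Atpif1, the inhibitor that stops ATP synthase running backwards, rose by 1.44 (SE 0.33, adjusted p = 0.0214) in OCS/LPS, from 9.27 and 10.27 to 11.01 and 11.40. Vdac1, the main channel of the outer membrane, rose by 0.50 and 0.70 in the same 2 comparisons with naive. Slc25a24 kept its calls in RIP-OVAhi and OCS/LPS in all 6 fits, and lost that in Rag whichever of the 4 RIP-OVAhi and OCS/LPS arrays was left out (up to 0.101), as did Atpif1 in OCS/LPS (up to 0.143). Vdac1 in OCS/LPS lost its call without either OCS/LPS array (up to 0.111) and kept it in RIP-OVAhi in 1 of the 6 fits (up to 0.229).

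The regulators of mitochondrial gene expression held the largest falls of any of these lists: of 17 tested, 1 rose and 3 fell in RIP-OVAhi, 0 rose and 2 fell in OCS/LPS and 0 were called in Rag. With 1 array left out 0 to 2 were higher and 2 to 4 lower in RIP-OVAhi, 0 to 2 higher and 2 to 3 lower in OCS/LPS, and 0 to 1 higher and 0 to 2 lower in Rag. Ppargc1b, a coactivator of respiratory genes, read 6.74 and 7.11 in naive cells, 4.59 and 4.24 in RIP-OVAhi cells, 4.52 and 4.74 in OCS/LPS cells and 6.60 in Rag. It fell by 2.51 (SE 0.20, adjusted p = 0.000524) in RIP-OVAhi and by 2.29 (SE 0.20, adjusted p = 0.000647) in OCS/LPS, to values below log2 5, where the size depends on the background level. Pprc1, a related coactivator, read 8.73 and 8.71 in naive cells, 7.27 and 7.27 in RIP-OVAhi cells, 7.28 and 7.52 in OCS/LPS cells and 8.48 in Rag. It fell by 1.45 (SE 0.13) and 1.32 (SE 0.13). In both genes the Rag array lay near the naive arrays and apart from the other 4, and both kept their calls in all 6 fits (adjusted p up to 0.0202). Tfb2m, a factor of mitochondrial transcription, fell by 0.71 in RIP-OVAhi and lost its call without either RIP-OVAhi array (up to 0.0959). The transcription factors Nrf1, Gabpa, Tfam and Esrra, which act on respiratory genes or mitochondrial DNA, were not called in either comparison.

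Promoters of 4 called members are shown because many respiratory genes are known to carry sites for the factors NRF-1 and GABP, an ETS family protein. They run from 250 bases before to 50 bases after the RefSeq start on GRCm38.p6: Sdhb at chr4:140961021-140961320 on the plus strand, Sdhd at chr9:50603800-50604099 on the minus strand, Uqcrc1 at chr9:108936398-108936697 on the plus strand and Ndufaf4 at chr4:24897833-24898132 on the plus strand. Capitals mark matches, on either strand, to the ETS core CCGGAAG or the NRF-1 core GCGCATG, 7 letters each.
Sdhb: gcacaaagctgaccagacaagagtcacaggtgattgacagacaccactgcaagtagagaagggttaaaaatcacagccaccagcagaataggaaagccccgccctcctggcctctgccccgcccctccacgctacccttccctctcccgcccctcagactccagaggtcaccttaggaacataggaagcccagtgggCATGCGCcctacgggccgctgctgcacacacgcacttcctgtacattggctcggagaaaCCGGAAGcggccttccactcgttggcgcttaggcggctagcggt
Sdhd: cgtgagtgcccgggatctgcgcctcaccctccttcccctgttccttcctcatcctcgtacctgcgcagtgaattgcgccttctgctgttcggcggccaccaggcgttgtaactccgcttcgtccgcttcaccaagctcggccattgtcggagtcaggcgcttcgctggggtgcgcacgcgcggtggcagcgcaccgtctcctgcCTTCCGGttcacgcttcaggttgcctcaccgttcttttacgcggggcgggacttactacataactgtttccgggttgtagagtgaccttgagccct
Uqcrc1: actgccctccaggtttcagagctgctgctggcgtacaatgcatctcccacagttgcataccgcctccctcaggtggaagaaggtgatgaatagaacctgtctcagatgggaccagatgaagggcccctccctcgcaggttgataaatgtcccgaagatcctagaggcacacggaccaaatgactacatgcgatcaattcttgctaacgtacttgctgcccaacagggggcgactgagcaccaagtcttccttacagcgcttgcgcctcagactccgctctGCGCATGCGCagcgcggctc
Ndufaf4: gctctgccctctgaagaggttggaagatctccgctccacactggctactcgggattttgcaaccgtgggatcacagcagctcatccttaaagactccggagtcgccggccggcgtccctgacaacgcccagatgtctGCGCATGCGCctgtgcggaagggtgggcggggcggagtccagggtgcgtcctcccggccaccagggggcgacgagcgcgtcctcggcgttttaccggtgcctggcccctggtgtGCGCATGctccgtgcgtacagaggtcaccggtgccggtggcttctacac
Sdhb held both cores, Sdhd the ETS core alone, and Uqcrc1 and Ndufaf4 the NRF-1 core, in each of which 2 matches on opposite strands overlapped to form 1 longer run of capitals. Of 81 tested members, 68 had a promoter in the RefSeq table, and 18 of these (26.5%) held the ETS core, against 22.6% of 6763 tested genes and 9.12% of 27025 genes. The NRF-1 core was held by 14 (20.6%), against 8.37% of the tested genes and 4.04% of all genes, and both cores by 6 (8.82%), against 1.80% and 0.67%. A match describes letters in the window and is not evidence of binding. Ndufa9, which rose in both comparisons, held neither core, and Ndufaf4, which fell, held the NRF-1 core 3 times. The 4 promoters shown all held a core, so they do not show how often called members do. Of the other called members, Cox5b and Ndufaf1 held a core too. Ndufs1, Ndufaf2, Ndufaf6, Ndufaf7, Uqcrfs1, Cox7c, Atp5a1, Atp5c1 and Atp5j had no match or no promoter listed.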

How the data were processed

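RNA of sorted OT-I cells was measured on 7 Affymetrix arrays: 2 each of naive, RIP-OVAhi and OCS/LPS cells and 1 of Rag cells. Per the labels' protocols, Trizol was used for extraction and 100 ng of total RNA entered a 2-cycle labelling. The deposited values are log2 expression values of 45101 probe sets from GCRMA (version not given in the sources used here), per the submitters' processing notes, and were used unchanged. Scanner files were not used here. Arrays have no read depth; their number limits the precision.

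Symbols came from the platform annotation. Of the probe sets, 34958 carried 1 symbol and were used, 932 carried several and 9211 none, which left out 10 probe sets that match the members' naming rule but list several symbols. All 91 members matched RefSeq genes of GRCm38.p6 by Entrez identifier. Of each gene the probe set with the highest mean was kept, and genes with log2 of at least 5 on at least 2 arrays (8203) were tested in limma 3.58.1 under R 4.3.3, with a mean per group over all 7 arrays. There were 3 residual and 2.93 prior degrees of freedom, and the prior SD was 0.156. Tests were two-sided, with Benjamini-Hochberg adjustment over the 8203 genes and calls at an adjusted p under 0.05. Values of a gene's other probe sets come from a fit over 13853 probe sets. The model was tested on simulated data in which 200 of 8203 genes were changed. Of changes of 0.5 (log2), 0% were recovered in every comparison. Of changes of 1, 39% to 43% were recovered between groups of 2 arrays and at most 0.05% in comparisons with Rag. The simulated setting resembles RIP-OVAhi against OCS/LPS and Rag against naive, where 239 and 224 genes were called. In these, a count of 0 calls does not exclude changes of these sizes. The other comparisons had 1373 to 2698 calls, which loosens the adjusted threshold, and smaller changes were called, such as Ndufs1 at 0.45 in OCS/LPS. Recovery at such numbers was not simulated, and a count of 0 calls there is not evidence of no change.

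Members and lists were chosen with earlier results of these data known. The named genes were, per comparison and complex, up to 4 called members with the largest absolute difference and no overlap between arrays. A fixed set of members was also named: the 4 of complex II, Ndufs1, Ndufv1, Uqcrc1, Uqcrfs1, Cyc1, Cox4i1, Cox5a, Cox6c, Cox7a2l, Atp5a1 and Atp5b. So were the tissue-restricted isoforms, the untested members, and up to 3 called genes per related list and comparison. Atp5l, Ndufa6, Ndufb9, Ndufs8, Cycs, Nrf1, Gabpa, Tfam and Esrra, and all second probe sets, were named after their values were seen. Alternatives were another probe set, the mean of a gene's probe sets, other filters (none, or log2 7), centred arrays, limma with trend and robust settings, fits on the 2 groups compared, a block on the replicate number, values within a number, and leaving out each array.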

Additional observations from a re-analysis of the deposited data

How the results depend on the processing

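Between RIP-OVAhi and OCS/LPS, 0 members were called in either direction in every fit run, beside 0.195% to 2.72% of all genes higher and 0.195% to 2.35% lower, and the median ran from -0.11 to -0.029 with 1 array left out and was -0.019 within replicate number 2. For comparisons that do not involve naive cells, the fits without 1 or both naive arrays are the same test, since a single array adds no spread. For RIP-OVAhi against OCS/LPS the fit on the 2 groups is that test as well. Percentages after a count are the share of all tested genes called in that direction in the same fit. RIP-OVAhi against naive gave 3 members higher (18.1%) and 1 lower (11.6%) with all arrays. It gave 5 (16.5%) and 2 (11.2%) with the second probe set of each gene, and 6 (17.4%) and 2 (11.7%) with the mean of a gene's probe sets. It gave 1 higher (14.5%) after centring, 8 (18.7%) with trend and robust settings and 0 (12.3%) in a fit on the 2 groups. With 1 array left out it ran from 0 to 38 higher, 0 to 16 lower and -0.07 to 0.42 in median. OCS/LPS against naive gave 13 higher (20.5%) and 1 lower (12.3%). It gave 7 higher (6.96%) with no filter, 7 (16.3%) after centring and 5 (14.3%) in a fit on the 2 groups, and 2 lower (11.8%) with the second probe set, 2 (13.2%) with the stricter filter and 3 (17.8%) after centring. With 1 array left out it ran from 1 to 46 higher, 0 to 15 lower and -0.01 to 0.49 in median. Rag against naive ran from 0 to 3 higher, 0 to 22 lower and -0.29 to 0.20.

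RIP-OVAhi against Rag gave 1 higher (9.84%), 2 lower (6.9%) and a median of 0.17. With no filter it gave 0 (2.8%), 1 (2.48%) and 0.13, with the mean of probe sets 1 lower (6.95%) and 0.16, and without the naive arrays 10 higher (17.4%). The median was 0.14 with the second probe set, 0.11 after centring and 0.19 within replicate number 1. With 1 array left out it ran from 0 to 10 higher, 0 to 2 lower and 0.15 to 0.19. OCS/LPS against Rag gave 1 higher (11.2%), 1 lower (6.9%) and 0.26. With no filter it gave 0 higher (3.27%) and 0.19, with the mean of probe sets 2 higher (11.2%) and 3 lower (6.54%), with trend and robust settings 2 higher (11.4%), after centring 2 lower (9.01%) and 0.16, and without the naive arrays 23 higher (20.4%) and 2 lower (14.2%). With 1 array left out it ran from 0 to 23 higher, 0 to 2 lower and 0.26 to 0.27. Sdhd in RIP-OVAhi turned to -0.017 (limma adjusted p = 0.942) with its second probe set. Atp5c1 in OCS/LPS turned to -0.61 (0.176) with its second probe set and to -0.017 (0.928) with the mean of its probe sets. The causes were not tested. The fit without the naive arrays was chosen after seeing the data.

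The labels give the groups the same replicate numbers and do not say what same-numbered arrays have in common. Deviations of same-numbered arrays correlated across 8203 genes at 0.35 (naive and RIP-OVAhi), 0.13 (naive and OCS/LPS) and 0.32 (RIP-OVAhi and OCS/LPS), and across 7931 autosomal genes at 0.20, -0.06 and -0.02. The autosomal set leaves out genes on X or Y or without a matched chromosome, so those genes carried part of the correlation over all genes. Across the 81 tested members the correlations were 0.46, -0.26 and -0.27. What same-numbered arrays share was not tested. With the number as a block, RIP-OVAhi against naive gave 2 higher (17.1%) and 1 lower (11%), with 3 of the 4 calls shared, and OCS/LPS against naive gave 10 (19.9%) and 1 (11.9%), with 11 of 14 shared. Under the block Rag against naive gave 0 (1.82%) and 0 (0.463%), RIP-OVAhi against Rag 1 (7.66%) and 0 (5.06%) with a median of 0.083, and OCS/LPS against Rag 1 (8.08%) and 1 (4.49%) with a median of 0.20. Arrays give no depth, and 2 arrays a group limit all of these counts.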
